A study of Mus musculus with 15 samples.

Results

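The genes described here were 7 components of the TGF-β pathway, out of 22342 protein-coding genes with a start on chromosomes 1 to 19 and X: the ligand gene Tgfb1, the receptor genes Tgfbr1 and Tgfbr2, and Smad2, Smad3, Smad4 and Smad7. They were taken by name, and the set was selected on one measured value, the H3K27Ac tags at an element about 150 kb before the Tgfbr2 start, which were lower at 48 than at 0 hours post induction (hpi). That change, and every other change in H3K27Ac between 0 and 48 hpi in these genes, is therefore given as a description. The values come from chromatin immunoprecipitation followed by sequencing (ChIP-seq) in C10 cells, a single mouse pre-B cell line derived from HAFTL cells that carries C/EBPα fused to the estrogen receptor hormone-binding domain and turns into macrophage-like cells once the fusion protein is activated. Per the labels, 100 nM β-estradiol induced the cells, the cytokines IL-3 and CSF-1 were given at 10 nM, and control cells received 0.1% ethanol. All cells at all 5 times (0, 3, 12, 24 and 48 hpi) carried the fusion gene, and no line without it was analysed here. H3K4Me1, H3K27Ac and H3K27Me3 were each measured in 1 library per time, 15 libraries in all, so no value below has a replicate and no test between times was possible.

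TGF-β is a secreted cytokine kept inactive by a propeptide until it is released. The active dimer binds the type II receptor TGFBR2, which then phosphorylates the type I receptor TGFBR1. TGFBR1 phosphorylates SMAD2 and SMAD3, which join the shared partner SMAD4 and enter the nucleus, while SMAD7 is an inhibitory Smad that is itself induced by the pathway and blocks the receptor. In the B lineage and in macrophages the pathway is best known for restraining proliferation and inflammatory responses. H3K4Me1 marks enhancers that are poised or in use, H3K27Ac marks active enhancers and promoters, and H3K27Me3 marks chromatin repressed by Polycomb.

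Values are tags, the sequenced ends of immunoprecipitated fragments, counted in 3 kb windows after each position was counted once and all libraries of a mark were drawn down to the smallest. This left 15216488 tags in each H3K27Ac library, 10913733 in each H3K4Me1 library and 15338280 in each H3K27Me3 library. An average mappable 3 kb window then held 18.3, 13.1 and 18.4 tags, and a window was called enriched from 34, 27 and 34 tags (Poisson p below 0.001). A window is called lower or higher if it differed at least 2-fold between 0 and 48 hpi and the larger count was enriched. Intervals are exact 95% intervals and cover counting error only. In such bulk samples, less of a mark per cell and fewer cells with the mark cannot be told apart. The labelled cell types were checked at their marker genes. All 8 pre-B marker starts were lower in H3K27Ac (1019 to 1710 tags at 0 hpi, 304 to 601 after 48 h), and 7 of 8 macrophage marker starts were higher (10 to 163 tags, then 90 to 1280). Of 5 erythroid genes 4, and of 6 T cell genes 4, were not enriched at 0 or 48 hpi. All 5 genes that every cell uses were enriched at both times, and none was called lower or higher. Their median log2 change in H3K27Ac was -0.41, from -0.82 (Tbp) to 0.03 (Gapdh). The median over all starts enriched at 0 or 48 hpi was -0.26.

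The Tgfbr2 element was placed at the 3 kb with the most H3K27Ac at 0 hpi between 140 and 160 kb before the start, chr9:116232383-116235382 (mm9), centred 149.5 kb upstream. No annotated gene overlapped it. The nearest protein-coding start was that of Tgfbr2, and the next, Gadl1, was 415310 bp away. Its sequence was searched on both strands for 5 short motifs. The letters CCCNNGGGA, the core of the motif of the B cell factor EBF1, occurred 2 times. The letters TTGCNNAA (C/EBP), GAGGAAGT (PU.1), TGANTCA (AP-1) and TGTGGTT (RUNX) did not occur. Only these exact letters were searched, so their absence does not show that a binding site is absent. The study names a putative Tgfbr2 enhancer about 150 kb upstream as an example with EBF1 and C/EBPα but no PU.1 binding. For its EBF1-bound enhancers as a set, the study reports that H3K27Ac enrichment was kept over time and that associated genes went up in RNA. The fall given below is in the tag count of a single element, which stayed enriched at 48 hpi. RNA was not analysed here, so this fall does not show lower Tgfbr2 expression. Of the 87627 windows of 3 kb enriched in H3K27Ac at 0 or 48 hpi, 34.0% held the EBF1 letters, 71.1% the C/EBP letters, 21.1% the PU.1 letters, 62.0% the AP-1 letters and 55.7% the RUNX letters. The 150 bases around each EBF1 match are shown as the sequence under the acetylation that chose the gene set, on the plus strand with the matching letters in capitals; the first match lies 680 bp from the centre on the side of the Tgfbr2 start, the second 401 bp from it on the far side, at chr9:116233128-116233277 and chr9:116234209-116234358.
Tgfbr2 element, first match: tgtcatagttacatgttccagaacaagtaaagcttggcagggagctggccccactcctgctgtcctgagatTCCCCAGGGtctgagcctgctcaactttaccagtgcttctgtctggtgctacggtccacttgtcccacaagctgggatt
Tgfbr2 element, second match: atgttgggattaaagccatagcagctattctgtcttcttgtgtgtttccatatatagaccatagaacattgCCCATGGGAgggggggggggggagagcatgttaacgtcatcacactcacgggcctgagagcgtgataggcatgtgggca

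For contrast, the 150 bases around the first C/EBP match in each of a pair of neighbouring Smad3 intron windows are shown, since these windows had almost no H3K27Ac at 0 hpi and were among the most acetylated of the locus at 48 hpi. They lie 78 and 81 kb after the start, at chr9:63527336-63527485 and chr9:63525001-63525150 (mm9, plus strand, C/EBP letters in capitals). The window at 78 kb held 1 match to the C/EBP letters, 2 to the RUNX letters and none to the other 3 motifs. The window at 81 kb held 2 matches to the C/EBP letters, 3 to the EBF1 letters, of which 2 overlap, 2 to the PU.1 letters and 4 to the AP-1 letters. Most enriched windows hold the C/EBP letters, so a match is a description of the sequence. Other windows searched went both ways. C/EBP matches were 3 in the rising Tgfbr2 window at 63 kb and 0 in the rising one at 60 kb. They were 2 in the falling Tgfbr1 window at 18 kb. EBF1 matches were 1 in the falling window 42 kb upstream of Tgfbr2 and 0 in the falling Smad3 window at 9 kb. They were 2 in the rising window 54 kb upstream of Tgfb1.
Smad3 intron, 78 kb: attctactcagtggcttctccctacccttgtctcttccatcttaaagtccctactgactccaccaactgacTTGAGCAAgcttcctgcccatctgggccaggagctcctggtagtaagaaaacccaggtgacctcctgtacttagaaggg
Smad3 intron, 81 kb: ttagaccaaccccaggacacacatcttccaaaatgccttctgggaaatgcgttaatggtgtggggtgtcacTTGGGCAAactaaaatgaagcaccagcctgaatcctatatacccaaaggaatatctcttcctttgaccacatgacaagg

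At the Tgfbr2 element H3K27Ac held 921 (862 to 982), 813, 697, 649 and 294 (261 to 330) tags over the time course. The largest step was the last one, and the 48 hpi level was still 16.1 times the average window, against 50.3 times at 0 hpi. The log2 change to 24 hpi was -0.50 (-0.65 to -0.36) and to 48 hpi -1.65 (-1.84 to -1.46). Background scaling shifts these by 0.62 and -0.03, so the direction at 24 hpi depends on the scaling and that at 48 hpi does not. H3K4Me1 held 228, 273, 257, 178 and 137 tags, a log2 change to 48 hpi of -0.73 (-1.05 to -0.42) that was -0.15 when libraries were scaled by background windows. H3K27Me3 stayed between 4 and 12 tags and was enriched at no time. The loss of H3K27Ac was uneven within the 3 kb. The 500 bp nearest the Tgfbr2 start went from 114 tags to 11, a log2 change of -3.37 (-4.42 to -2.48). The 500 bp just on that side of the centre went from 190 to 96, a log2 change of -0.98 (-1.35 to -0.62). The other steps lay between, at -1.38 to -2.23. The outermost 500 bp on the far side were at -1.80 (-2.50 to -1.14). By point value both outermost steps thus lost a larger share of their tags than either step beside the centre.

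**Figure D1:**
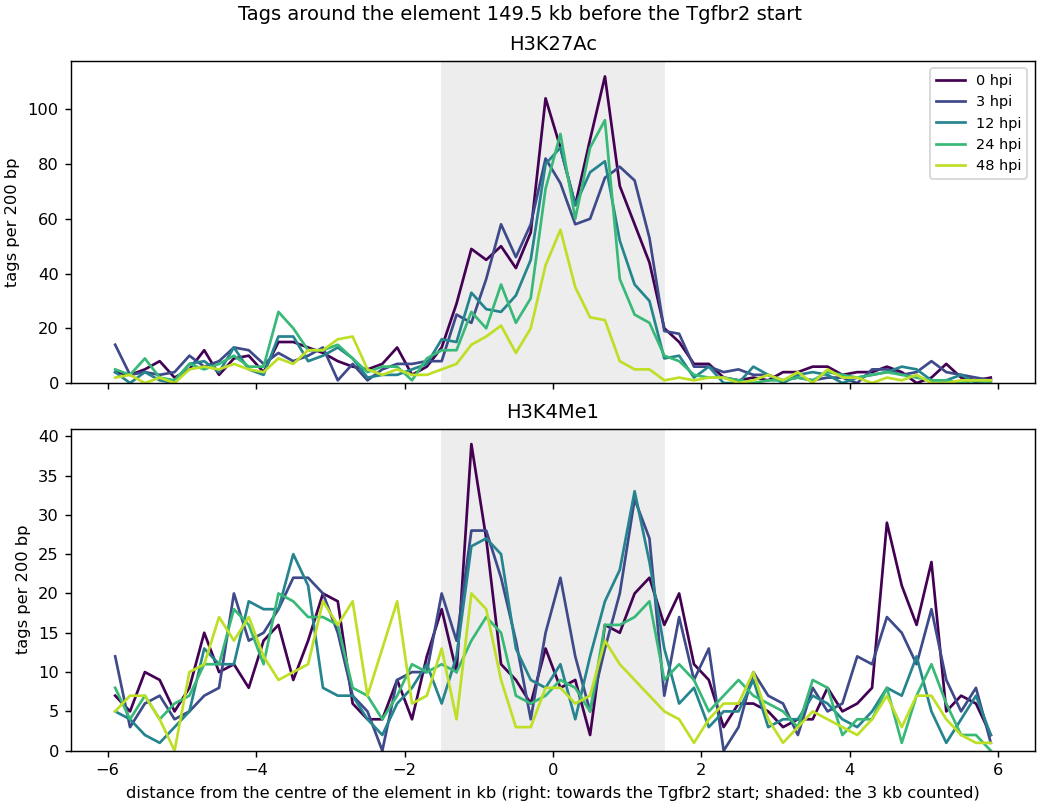
Tags per 200 bp within 6 kb of the centre of the Tgfbr2 element, H3K27Ac above and H3K4Me1 below, 1 line per time and 1 library per line; the shaded 3 kb are those counted, and the Tgfbr2 start lies to the right. At 48 hpi H3K27Ac is highest near the centre, and the outermost 500 bp counted on the side of the gene hold 11 tags, against 25 on the far side.

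At the gene starts, H3K27Ac was enriched in all 5 libraries for all 7 genes. It was at least 2-fold lower at 48 than 0 hpi at 4 of 7 starts (Tgfb1, Tgfbr1, Smad3 and Smad7) and higher at none. Over all 22342 starts 8.13% were lower and 3.69% higher, over the 11326 starts enriched at 0 or 48 hpi 16.0% and 7.28%. Of the 1504 starts with at least 600 tags at 0 hpi, a bound chosen after the values were seen, 30.2% were lower and 0.0665% higher. These starts were picked by their 0 hpi count, the same library that enters the change, so a share of lower starts above the general one is in part fixed by that choice. Of the 4 members above that bound, 3 were lower. The count of 4 was 4 with background scaling but 0 when libraries were scaled by windows enriched in all 5, which adds 0.36 to every H3K27Ac log2 change at 48 hpi, and 2 in windows of 1 kb or 6 kb. It was 3 without thinning and with repeats kept, where Tgfbr1 was at -0.99 instead of -1.02. It was 0 when 24 hpi was compared with 0 hpi.

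**Figure D2:**
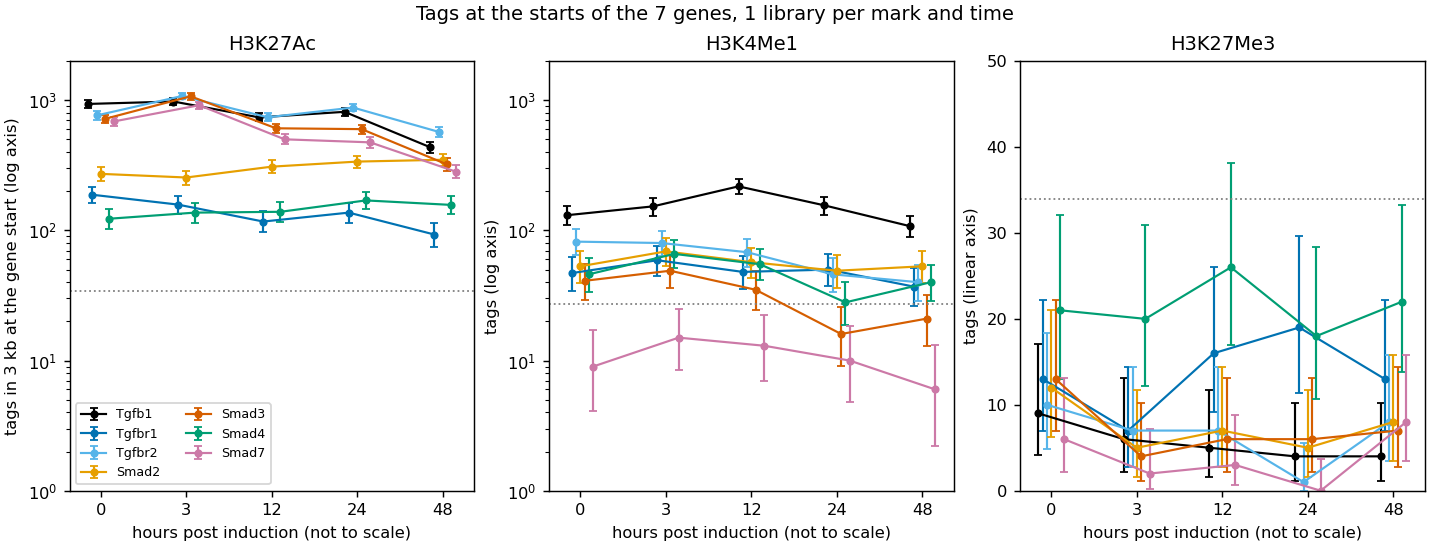
Tags in 3 kb at the start of each gene by time, 1 panel per mark, with exact 95% Poisson intervals and the enrichment limit as a dotted line; H3K27Ac and H3K4Me1 are on log axes, H3K27Me3 on a linear one. For H3K27Ac, Smad2 and Smad4 lie higher at 48 than 0 hpi, while the other 5 lie lower.

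The ligand gene Tgfb1 (chr7:26472021-26490096, plus strand) had the most H3K27Ac of the 7 starts at 0 hpi. It held 937, 978, 739, 815 and 436 tags at 0, 3, 12, 24 and 48 hpi. The log2 change was -0.34 (-0.48 to -0.20) at 12 hpi, -0.20 (-0.34 to -0.06) at 24 hpi and -1.10 (-1.27 to -0.94) at 48 hpi, so most of the loss came last. Background scaling adds 0.62 to the change at 24 hpi, which turns its sign. Over the 1504 starts with at least 600 tags at 0 hpi the median change was -0.18 at 24 hpi and -0.67 at 48 hpi, also with most of the loss last. The window at the Tgfb1 start also overlaps B9d2. H3K4Me1 was enriched throughout at 131, 153, 218, 156 and 108 tags, highest at 12 hpi, and its change to 48 hpi of -0.28 (-0.66 to 0.10) was within counting error.

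The type I receptor gene Tgfbr1 (chr4:47366094-47427803, plus strand) was acetylated far less than the type II receptor gene. Its start held 188, 158, 117, 137 and 93 H3K27Ac tags, a log2 change of -1.02 (-1.39 to -0.65). H3K4Me1 there was 47, 59, 48, 50 and 37 tags, and the 0 and 48 hpi values did not differ beyond counting error. The start of Tgfbr2 (chr9:115993415-116084383, minus strand) held 764, 1078, 740, 879 and 572 H3K27Ac tags. It was highest at 3 hpi, but at 24 hpi with background scaling, which shifts log2 changes by -0.3 at 3 hpi and 0.62 at 24 hpi. The Tgfbr2 start was the least reduced of the 5 starts with a negative change, at -0.42 (-0.58 to -0.26), and -0.05 with scaling by commonly enriched windows. In fixed windows, the start held 764 tags (711 to 820) at 0 hpi and 572 at 48 hpi, and the element 820 (765 to 878) and 290. The 0 hpi values are not apart by counting error, and the fall at the element is the value that chose the genes. H3K4Me1 at the Tgfbr2 start went down through 82, 80, 68, 46 and 40 tags, a log2 change of -1.04 (-1.62 to -0.47). It was the one member called lower in that mark, against 5.9% of all starts lower and 3.09% higher, and the call was lost with background scaling (-0.45), in windows of 6 kb (-0.11), with repeats kept (-0.91) and without thinning (-0.97).

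The receptor-activated Smads moved apart at their starts. Smad3 (chr9:63494574-63605801, minus strand) held 720, 1072, 609, 600 and 321 H3K27Ac tags. The log2 change from 0 hpi was 0.57 (0.44 to 0.71) at 3 hpi and -1.17 (-1.36 to -0.97) at 48 hpi. The median over enriched starts at 3 hpi was 0.13. H3K4Me1 at this start was 41, 49, 35, 16 and 21 tags and was below the enrichment limit at 24 and 48 hpi. The Smad3 and Tgfbr2 promoters are both rich in CpG, at 22 and 20 CpG in the 250 bases before the start against a median of 9 over all starts. All 7 members had at least 20, more than 76.1% to 99.2% of starts have. The C/EBP, EBF1, PU.1 and RUNX letters, held by 8.9%, 6.3%, 2.4% and 4.1% of all promoters of this length, occurred in these 250 bases in none of the 7 members, and the AP-1 letters (5.9%) only in Tgfbr2. The 250 bases before each start are shown to compare these promoters, whose H3K27Ac was alike at 0 hpi and differed at 48 hpi, on the minus strand of mm9 with CpG in capitals, at chr9:116084384-116084633 and chr9:63605802-63606051.
Tgfbr2 promoter: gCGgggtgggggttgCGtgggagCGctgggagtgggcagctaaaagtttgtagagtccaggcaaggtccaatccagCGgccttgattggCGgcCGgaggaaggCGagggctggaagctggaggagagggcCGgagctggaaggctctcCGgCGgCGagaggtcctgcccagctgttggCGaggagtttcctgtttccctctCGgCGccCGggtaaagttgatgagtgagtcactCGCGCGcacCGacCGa
Smad3 promoter: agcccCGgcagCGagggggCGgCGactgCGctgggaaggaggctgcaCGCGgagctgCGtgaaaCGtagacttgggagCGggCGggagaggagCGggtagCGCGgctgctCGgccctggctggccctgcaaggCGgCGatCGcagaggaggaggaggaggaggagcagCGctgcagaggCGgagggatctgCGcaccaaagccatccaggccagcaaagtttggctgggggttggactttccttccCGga

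Smad3 has 3 further coding starts more than 3 kb inside the gene. At the one 46025 bp in, H3K27Ac held 116, 230, 564, 650 and 584 tags and H3K4Me1 233, 294, 508, 396 and 370. The window at this start gained H3K27Ac from 3 hpi on, and at 48 hpi it held more tags than that at the outer start (584 against 321). It lies close to the strongly acetylated intron window at chr9:63562301-63565300 described below, so the gain cannot be assigned to the start itself. At the start 6917 bp in, H3K27Ac held 227, 229, 149, 145 and 75 tags, the direction of the outer start. At 91447 bp the counts were 25, 33, 56, 55 and 48. Reads alone do not say which of these starts is used, since RNA was not analysed here.

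In Smad2 (chr18:76401234-76465385, plus strand), the other receptor-activated Smad, the start held 272, 255, 309, 338 and 349 H3K27Ac tags. The log2 change was 0.36 (0.13 to 0.59), less than 2-fold but in the opposite direction to Smad3. H3K4Me1 was 53, 69, 57, 49 and 53 tags and showed no trend. The shared partner Smad4 (chr18:73798663-73863434, minus strand) had the lowest H3K27Ac at 0 hpi, with 123, 137, 139, 170 and 157 tags and a change of 0.35 (0.00 to 0.70). Its H3K4Me1 was 46, 66, 55, 28 and 40 tags. The start of the inhibitory Smad7 (chr18:75527183-75555589, plus strand) held 687, 916, 501, 475 and 283 H3K27Ac tags, a change of -1.28 (-1.48 to -1.08). By its point value this was the lowest of the 7, with an interval that overlaps that of Smad3. In windows of 1 kb Smad7 was at -0.96, above Tgfb1 (-1.36) and Smad3 (-1.09). The log2 change at the Smad7 start to 3 hpi was 0.42 (0.27 to 0.56), so that 3 hpi was the highest time, as at the Smad3 and Tgfbr2 starts. Background scaling shifts log2 changes by -0.3 at 3 hpi and 0.62 at 24 hpi. The highest time at the Smad3 and Tgfbr2 starts is then 24 hpi. H3K4Me1 at the Smad7 start, at 6 to 15 tags, was enriched at no time. The other starts of Smad2, Smad4 and Tgfbr1 that lie over 3 kb inside the gene held at most 19 H3K27Ac tags in any library.

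By level, H3K27Ac at 0 hpi ran in the order Tgfb1, Tgfbr2, Smad3, Smad7, Smad2, Tgfbr1, Smad4. Tgfbr2, Smad3 and Smad7 were not separated from their neighbours by more than counting error, and the other steps were. At 48 hpi Tgfbr2 was first and Tgfb1 second, Smad2, Smad3 and Smad7 followed without separation between neighbours, and Tgfbr1 was last, below Smad4. H3K27Me3 was enriched at none of the 7 starts at 0 or 48 hpi, at 6 to 21 tags at 0 hpi and 4 to 22 at 48 hpi. Over all starts 15.7% were enriched in H3K27Me3 at 0 hpi and 18.1% at 48 hpi, and 0.313% were at least 2-fold lower and 0.783% higher.

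Across the whole loci, each gene body plus 160 kb upstream was cut into 3 kb windows, 524 in all. Of the 196 windows enriched in H3K27Ac at 0 or 48 hpi, 50 were lower and 65 higher (25.5% and 33.2%), against 20.5% and 40.8% of all enriched windows of the genome. With scaling by commonly enriched windows these were 35 and 82. For H3K4Me1, 37 of 258 were lower and 69 higher (14.3% and 26.7%), against 15.4% and 30.9%, and 15 and 117 with background scaling. The shares over the genome are without either scaling and were not computed with it, so the rescaled counts cannot be set against them. For H3K27Me3, 2 of 121 were lower and 1 higher, against 1.4% and 4.46%. In H3K27Ac, Smad7 had 15 of 31 enriched windows lower and 7 higher, Smad3 7 of 43 lower and 19 higher, and Smad2 none of 5 lower and 3 higher.

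**Figure D3:**
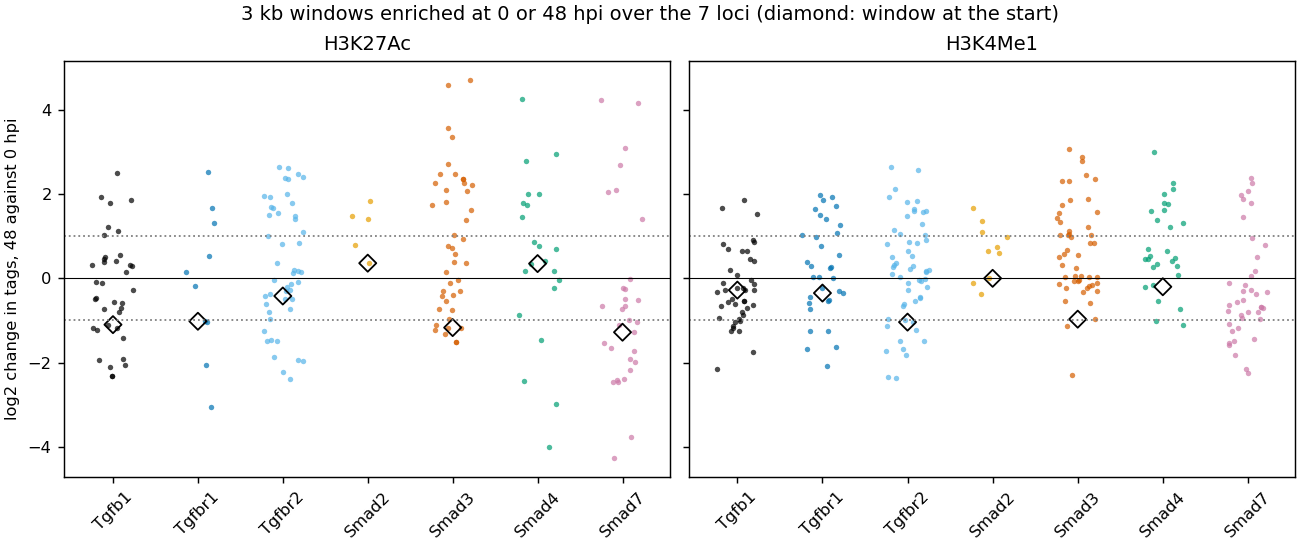
Log2 change in tags from 0 to 48 hpi for each 3 kb window enriched at 0 or 48 hpi, by gene, H3K27Ac left and H3K4Me1 right; dotted lines mark 2-fold and diamonds the window at the start. Windows of Smad3 reach 4.71 while its start is at -1.17, and most Smad7 windows lie below 0 in H3K27Ac.

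Upstream of Tgfbr2, 9 of 18 enriched windows were lower in H3K27Ac and 4 higher (50.0% and 22.2%), while in the gene body none of 29 was lower and 14 were higher (48.3%). Of all enriched windows of the genome 20.5% were lower and 40.8% higher, so the share of higher windows in the gene body was near the general one. The element was not the only strong upstream site. A pair of windows 42 and 45 kb upstream, named after their values were seen, held 872, 476, 504, 485 and 227 and 617, 367, 303, 298 and 159 H3K27Ac tags. Their log2 changes, -1.94 (-2.16 to -1.73) and -1.96 (-2.22 to -1.70), were larger in size than that of the element, and they had dropped to 476 and 367 tags by 3 hpi, when the element still held 813. H3K4Me1 at 42 kb went with it, from 232 to 73 tags. The window with the largest fall in the locus, 147 kb upstream, went from 180 to 34 tags (-2.40, -2.98 to -1.87), but it shares 500 bp with the element, and those 500 bp held 114 of the 180 tags at 0 hpi and 11 of the 34 at 48 hpi. A site 78 kb upstream kept 213 of 301 tags. The largest rise was in the intron 60 kb into the gene, at chr9:116022883-116025882, with 29, 15, 39, 75 and 181 tags (2.64, 2.07 to 3.26), beside a window at 63 kb with 115, 72, 202, 397 and 604 (2.39, 2.10 to 2.69). The flank 3 kb upstream of the start rose early, with 77, 404, 448, 580 and 294 tags. By count, the strongest H3K27Ac of the locus was thus the intron window at 63 kb (604 tags) at 48 hpi and the window 42 kb upstream (872) at 0 hpi. Neither was apart by counting error from the next: the start at 48 hpi (572, 526 to 621) and the fixed window over the element at 0 hpi (820, 765 to 878). The 921 tags above come from a window placed where the 0 hpi count at the element was highest. By its point value the largest fall in H3K4Me1 over all 7 loci was also here, 36 kb upstream, at 31, 21, 17, 11 and 6 tags. Its change of -2.37 (-3.92 to -1.09) was not apart by counting error from -2.24 (-2.87 to -1.65) in the window 78 kb upstream of Smad7.

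**Figure D4:**
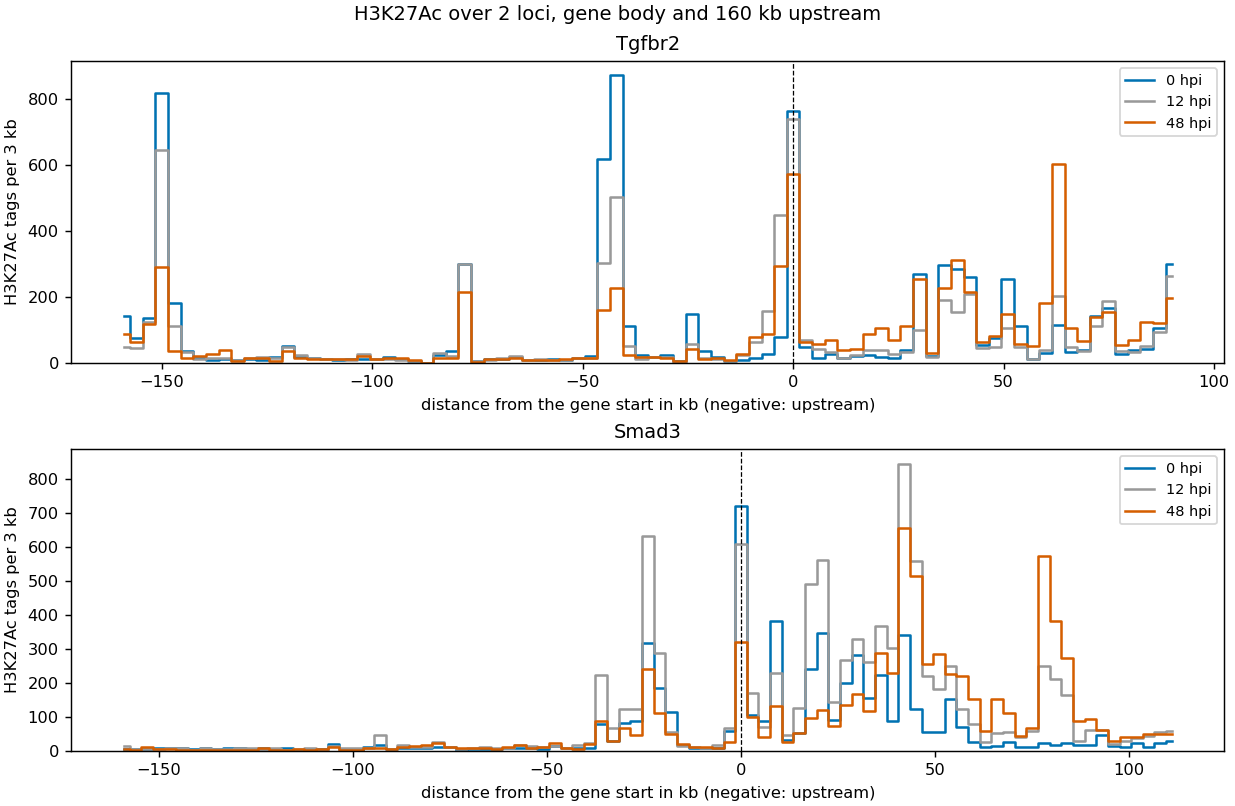
H3K27Ac tags per 3 kb over the Tgfbr2 and Smad3 loci at 0, 12 and 48 hpi against distance from the start, 1 library per line. Upstream summits of Tgfbr2 are lower at 48 hpi and the summit 63 kb into the gene is higher, while in Smad3 a summit 78 kb into the gene appears between 0 and 48 hpi.

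Within Smad3, 35 of 37 gene-body windows were enriched in H3K27Ac, 19 of them higher and 4 lower (54.3% and 11.4%, against 40.8% and 20.5% of all enriched windows). The largest rise of all 7 loci, by its point value, was in the intron 78 kb after the start, chr9:63526301-63529300, with 22, 23, 249, 456 and 575 tags (4.71, 4.10 to 5.39). H3K4Me1 rose there too, through 33, 32, 182, 281 and 279 tags (3.08, 2.56 to 3.65). By its point value this was the largest H3K4Me1 rise of the 7 loci. It was not apart by counting error from 2.99 (2.39 to 3.66) in the window 42 kb upstream of Smad4. In the Smad3 window at 78 kb H3K27Ac was near the genome average at 0 and 3 hpi and 31.4 times it at 48 hpi, and H3K27Me3 at 4 to 11 tags was enriched at no time. The windows at 81 and 84 kb followed it in H3K27Ac, from 16 to 382 and from 23 to 272 tags. The most H3K27Ac outside the start, summed over the 5 times, was 42 kb in, at 341, 554, 846, 941 and 655 tags, over H3K4Me1 that stayed between 371 and 521. Closer to the start the time course was another one. At 21 kb H3K27Ac held 346, 502, 562, 476 and 121 tags, by count highest at 12 hpi and lowest at 48 hpi. The highest time there was 24 hpi with background scaling, which shifts log2 changes by -0.13 at 12 hpi and 0.62 at 24 hpi. At 9 kb H3K27Ac went from 382 to 133 tags (-1.52, -1.82 to -1.23). H3K4Me1 at those places changed by less than 2-fold. The largest fall in H3K27Me3 over the 7 loci was 36 kb upstream of Smad3, at 37, 25, 41, 14 and 15 tags, where H3K4Me1 rose from 146 to 319. It was the exception there: 45 of 53 windows upstream of Smad3 were enriched in H3K27Me3 at 0 or 48 hpi, and 44 of these changed by less than 2-fold. The H3K27Me3 sum over the Smad3 locus went from 2447 to 2772 tags.

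Over the Smad7 locus H3K27Ac was lower at 48 than at 0 hpi. Upstream, 13 of 23 enriched windows were lower and 7 higher (56.5% and 30.4%, against 20.5% and 40.8% of all enriched windows). The sum over the whole locus, start and gene body included, went from 7579 to 3208 tags. That is a log2 change of -1.24 (-1.30 to -1.18), to which scaling by commonly enriched windows adds 0.36. The window with the most H3K27Ac outside the start over the 5 times together lay 90 kb upstream inside the neighbouring gene Dym, chr18:75435683-75438682, with 816, 638, 385, 275 and 181 tags (-2.17, -2.41 to -1.94). The adjoining windows at 87, 84 and 81 kb began at 786, 699 and 762 tags and ended at 142, 127 and 56. The largest fall in this locus was 78 kb upstream, with 193, 139, 29, 15 and 10 tags (-4.27, -5.35 to -3.36), and H3K4Me1 went from 137 to 29. By 12 hpi the window at 90 kb had gone from 816 to 385 tags and that at 78 kb from 193 to 29, while the Tgfbr2 element had gone from 921 to 697. Scaling by commonly enriched windows adds 0.15 to log2 changes at 12 hpi, which takes the loss at 90 kb below 2-fold. Near the start the change had the other sign: 6 kb upstream H3K27Ac rose through 4, 42, 93, 48 and 75 tags (4.23, 2.81 to 6.14), and 3 kb upstream through 57, 117, 258, 213 and 243.

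In Tgfbr1 the main site outside the start was the intron window 15 kb in, chr4:47379594-47382593. It held 397, 156, 87, 84 and 96 H3K27Ac tags (-2.05, -2.39 to -1.72), most of the loss coming by 3 hpi, over H3K4Me1 that was 128 tags at 0 and 109 at 48 hpi. Its neighbour at 18 kb went from 100 to 12 tags (-3.06). The largest rise lay 60 kb upstream inside Col15a1, from 9 to 52 tags. The largest rise in H3K27Me3 over the 7 loci was also there, 45 kb upstream, at 24, 28, 37, 41 and 51 tags. Upstream of Tgfbr1, 46 of 53 windows were enriched in H3K27Me3 at 0 or 48 hpi, and 44 of these changed by less than 2-fold. In Tgfb1 the windows 9 and 12 kb upstream, the latter at the start of Tmem91, went from 1046 to 251 and from 669 to 133 tags, and a window 54 kb upstream inside Bckdha rose through 98, 81, 182, 506 and 559 (2.51, 2.20 to 2.84) with H3K4Me1 from 124 to 391. The window with the largest H3K27Ac sum outside the Tgfb1 start, 6 kb upstream at the start of B9d2, went from 1249 to 553.

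In Smad4, the largest rise lay 42 kb upstream inside Elac1, chr18:73903934-73906933, with 17, 32, 229, 433 and 324 H3K27Ac tags (4.25, 3.55 to 5.05) and H3K4Me1 from 25 to 199. Its time course was like that of the Smad3 intron site, with almost nothing at 0 and 3 hpi and most of the gain by 24 hpi. The largest fall was 129 kb upstream, from 48 to 2 tags, beside a window at 132 kb that went from 404 to 51. The window with the most H3K27Ac outside the start by the sum over the 5 times, at the start of Me2, went from 375 to 205. Smad2 had the fewest enriched windows: none upstream was enriched in H3K27Ac at 0 or 48 hpi, 3 of the 4 enriched in the gene body were higher and none was lower, and the sum over the locus changed by 0.45 (0.31 to 0.58). The largest rise was 3 kb into the gene, at 21, 27, 63, 87 and 75 tags (1.84, 1.12 to 2.61). Windows that lie in neighbouring genes may belong to those genes, and nothing measured here assigns them.

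The rest of the pathway was described by 76 further genes, of which 75 were found. Of these, 44 starts were enriched in H3K27Ac at 0 or 48 hpi, 15 were lower and 4 higher, against 16.0% and 7.28% of all enriched starts, and the median log2 change was -0.09 against -0.05 over all starts. With scaling by commonly enriched windows the counts were 11 and 8, and over all 22342 starts they went from 1817 lower and 825 higher to 1009 and 1423. Counts for each role are over all its starts, and over all starts of the genome the shares were 8.13% lower and 3.69% higher. Among 28 ligands and their activators, 10 of them enriched, 6 were lower and 1 higher. Tgfb2, a second TGF-β ligand, went from 99 to 15 tags (-2.72) and Ltbp4, which anchors latent TGF-β in the matrix, from 365 to 77 (-2.24), while Furin, the protease that cleaves the TGF-β precursor, was higher (1.85). Among receptors and co-receptors 4 of 12 were lower and 1 higher. Bambi, a decoy receptor, changed by -1.95 and the co-receptor gene Tgfbr3 by -1.75, and Acvrl1, another type I receptor of the family, rose from 19 to 226 tags (3.57). None of the 4 other Smads was called: Smad5 held 294 and 257 tags, Smad6 243 and 164, and Smad1 and Smad9 were not enriched. Of 18 Smad partners and inhibitors 4 were lower and none higher, with Zeb1 at -2.10 and Tgif2, a transcriptional corepressor, at -1.95. Of 13 usual target genes Id3 was lower (-1.51) and Id1 (1.22) and Tgfbi (1.10) were higher. H3K4Me1 was lower at 9 and higher at 1 of the 75 starts, against 5.9% and 3.09% of all starts. With background scaling these were 1 and 3, and the counts over all starts turned in the same way, from 1319 lower and 690 higher to 359 and 1651.

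**Figure D5:**
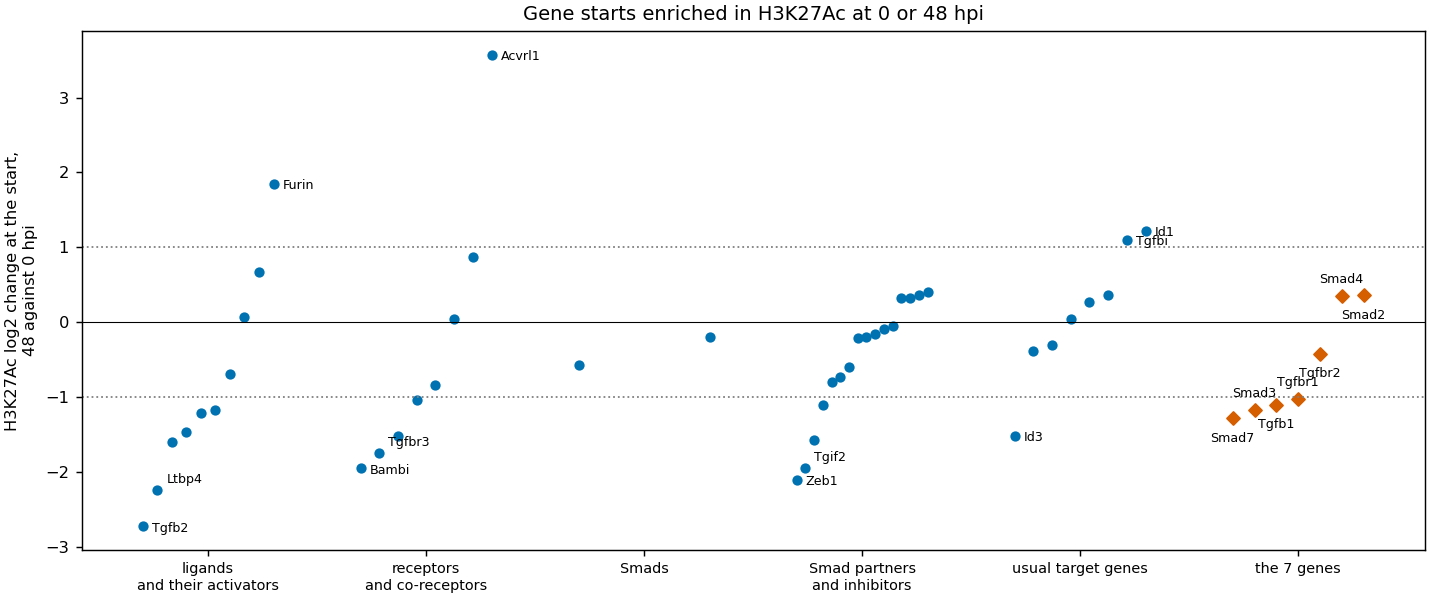
Log2 change in H3K27Ac tags from 0 to 48 hpi at each pathway start enriched at 0 or 48 hpi, grouped by role, with the 7 genes as diamonds on the right; dotted lines mark 2-fold. Acvrl1 at 3.57 is the highest and Tgfb2 at -2.72 the lowest, and the 7 genes lie between -1.28 and 0.36.

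Likeness to Tgfbr2 was taken as Pearson's correlation over the 15 libraries of log2(tags + 1) at the start, with the mean of each mark subtracted. H3K27Me3 counts below the enrichment limit enter it with the same weight as the other marks: Tgfbr2 held 10, 7, 7, 1 and 8 such tags, and its low count at 24 hpi is the widest departure in its profile. The 3 most alike genes held 1, 2 and 0 H3K27Me3 tags at 24 hpi, so the values below reflect such sparse counts in part and give no order of likeness in H3K27Ac or H3K4Me1. The 3 genes most like it among 11546 were BC030307 (0.96), Vgll4 (0.95) and Smarcd2 (0.94). All genes share the same 15 libraries, and 32.0% of them had a value above 0.5. Among the other members the values were 0.87 for Smad7, which held 0 H3K27Me3 tags at 24 hpi, 0.54 for Smad3, 0.53 for Tgfb1, 0.50 for Smad2, 0.44 for Smad4, and -0.13 for Tgfbr1, which held 19.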

How the data were processed

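Each file deposited by the authors is a list of tag positions (BED intervals of 36 bp, no count, score or signal given). Per the labels and the study's methods, reads were aligned to mm9 with Eland or Bowtie and identical and non-unique tags were removed. The files held 11041458 to 31557475 tags. The 0 and 48 hpi files of H3K4Me1 kept positions with more than 2 tags (13096 and 6760 positions), those of H3K27Me3 had at most 1 tag per position, and the others at most 2. Here 1 tag per position was kept, placed at its middle (18 bp in), and libraries were thinned to the smallest of their mark. Tags were counted in 3 kb windows at the annotated protein-coding start with the most H3K27Ac (GENCODE vM1, NCBIM37) and in windows over each gene and 160 kb upstream. Log2 changes use a floor of 3 tags. Intervals are exact Poisson (counts) and exact binomial (changes). The calls were checked on simulated counts with counting error only and with changes past 2-fold. That check says nothing of calls near 2-fold, of spread between libraries or of scaling. The 7 members, the lists of pathway and marker genes and the tests were chosen with earlier results of these data known. Named are all members and, per locus, the window with the most H3K27Ac, the largest fall and the largest rise, for the other marks the largest fall and rise over all loci, and of each pathway list the 2 highest and 2 lowest called starts; other windows were named after their values were seen. Alternatives were repeats kept, no thinning, scaling by background or commonly enriched windows, windows of 1 or 6 kb, the 5'-most start, shifted windows, a stricter enrichment limit, tag placement and another random draw. Sequences are from NCBIM37. Python 3.11.15 with numpy 2.4.6, pandas 2.3.3 and scipy 1.17.1 was used. Libraries of other factors, RNA and replicates were not analysed here.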

Additional observations from a re-analysis of the deposited data

How the results depend on the processing

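With 1 library per mark and time, depth sets only the counting error, and library-to-library spread was not measured. No paired analysis was possible because every group holds 1 library. Scaling adds 0.36 (H3K27Ac, commonly enriched windows) or 0.58 (H3K4Me1, background windows) to every log2 change at 48 hpi. At 3, 12 and 24 hpi background scaling shifts H3K27Ac changes by -0.3, -0.13 and 0.62, and H3K4Me1 changes by 0.31, 0.65 and 0.67. Small changes and the highest time among 3, 12 and 24 hpi therefore depend on the scaling.

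Of 124 values recomputed under another setting 102 stayed within counting error or within 1.5 times the count and 22 moved. Counts that stayed at 0 are among the 102. None reversed, but only a change of at least 2-fold, not a count, could be given that label. The 4 member starts lower in H3K27Ac were 2 in windows of 1 kb, 2 in windows of 6 kb and 0 with scaling by commonly enriched windows. The 1 member start lower in H3K4Me1 was 0 in windows of 1 or 6 kb, with repeats kept, without thinning and with background scaling, and 2 with another random draw. The element's H3K27Ac change of -1.65 was -1.16 in 1 kb and -1.28 with scaling by commonly enriched windows, and its H3K4Me1 change of -0.73 was -0.26 in 1 kb and -0.15 with background scaling. Windows over the loci scale with their number: in 1 kb windows 117 were lower and 158 higher in H3K27Ac and 102 and 192 in H3K4Me1, in 6 kb windows 35 were lower and 36 higher in H3K27Ac and 20 lower and 32 higher in H3K4Me1. With background scaling 15 were lower and 117 higher in H3K4Me1. Shares over all windows of the genome were not computed under these settings.

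Comparisons of other times were added after seeing the data. For 24 against 0 hpi no member start was lower in H3K27Ac (0), and the element changed by -0.50 in H3K27Ac and -0.36 in H3K4Me1. Background scaling adds 0.62 and 0.67 to these changes of the element, which turns both signs. For 24 against 3 hpi no member start was lower in H3K27Ac (0), and the element's H3K27Ac change was -0.33. In H3K4Me1, 2 member starts were lower, and 18 (H3K27Ac) and 20 (H3K4Me1) windows over the loci were lower. The windows that were higher are not given here, so these counts show no net direction. Background scaling shifts H3K27Ac by -0.3 at 3 hpi and 0.62 at 24 hpi, and H3K4Me1 by 0.31 and 0.67. The sign of the element's H3K27Ac change from 3 to 24 hpi therefore depends on the scaling. Shares over all starts or windows were not computed for these times, so these counts cannot be set against the genome. The cause of these differences was not tested. Of 189 recomputed changes at single starts 18 moved and none of those called changed sign.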
